A study of Mus musculus with 4 samples.

Results

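Leukocyte integrins are the adhesion receptors by which blood cells hold on to vessel walls, to matrix and to each other. The 10 integrin genes described here are Itga1, Itga2, Itga4, Itgae, Itgal, Itgam, Itgax, Itgb1, Itgb2 and Itgb7, chosen by gene symbol, and they are 10 of the 32285 gene rows counted in the study. Transcripts were counted as unique molecular identifiers (UMIs) by 10x Genomics 5′ single-cell sequencing of CD45+ cells sorted from the livers of female C57BL/6 mice, with 1 library for each of 4 groups. Young WT mice were untreated and 8 weeks old by the labels. The other groups were at 36 weeks by the labels, within the range of the paper's methods, although a figure legend of the paper gives a different age. They had received the carcinogen diethylnitrosamine (DEN) once by intraperitoneal injection at 25 mg/kg on day 14. From weaning on day 21 they had been fed a choline-deficient diet with 60% fat (CDHFD). These DEN-CDHFD–treated mice were WT, miR-146a-/- or DKO, the last lacking both miR-146a and the chemokine gene Ccl5. Below, "WT" alone means the treated WT library, and values without names follow the order young WT, WT, miR-146a-/-, DKO. Age, DEN and diet differ together between young WT and WT and cannot be told apart, and the number of mice behind a library is not stated.

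An integrin is a pair of an α and a β chain, and the chains decide what a cell can bind. Itga1 and Itga2 (CD49a and CD49b) pair with Itgb1 and bind collagens, Itga4 (CD49d) pairs with Itgb1 to bind VCAM-1 and fibronectin or with Itgb7 to bind MAdCAM-1, and Itgae (CD103) pairs with Itgb7 and binds E-cadherin. Itgal, Itgam and Itgax (CD11a, CD11b and CD11c) pair with Itgb2 (CD18) and bind ICAMs and, for the last α chains, complement fragments. In the mouse liver, CD49a and CD49b are the surface proteins that separate type 1 innate lymphoid cells (ILC1) from conventional NK cells.

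The microRNA deleted in miR-146a-/- and DKO mice is shown because both groups lack it. Its mature 5p strand, from RefSeq, is printed with its seed, bases 2 to 8, in capitals.
miR-146a-5p: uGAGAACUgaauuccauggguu
A match to this seed reads AGTTCTC in the transcript. In the longest annotated 3′ UTR of each gene (GENCODE M21), Itga4 held 1 such match and the other 9 members held none, and 2331 of 20874 genes (11.2%) held at least 1. None of the gene rows stands for miR-146a, whose loss was therefore not checked.

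Of the members, 7 of 10 had a promoter in the RefSeq table (GRCm38.p6), and Itgae, Itgal and Itgb2 are named only. The promoters of the neighbouring genes Itga1 and Itga2 (both minus strand, chr13:115101915-115102214 and chr13:114932051-114932350) and Itgam and Itgax (both plus strand, chr7:128062390-128062689 and chr7:128129300-128129599) are shown because the genes of each couple, though adjacent, were highest in different cell classes. All were searched on both strands, and matches are in capitals. The letters were GAGGAA for the ETS-type motif. For the RUNX-type motif they were TGTGGT. The T-box-type motif was spelled TCACAC.
Itga1: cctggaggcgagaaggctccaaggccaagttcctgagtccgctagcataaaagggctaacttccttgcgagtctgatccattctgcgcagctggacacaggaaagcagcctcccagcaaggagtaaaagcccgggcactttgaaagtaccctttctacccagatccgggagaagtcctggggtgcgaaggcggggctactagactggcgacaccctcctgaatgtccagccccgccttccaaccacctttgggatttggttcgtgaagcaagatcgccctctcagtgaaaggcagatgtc
Itga2: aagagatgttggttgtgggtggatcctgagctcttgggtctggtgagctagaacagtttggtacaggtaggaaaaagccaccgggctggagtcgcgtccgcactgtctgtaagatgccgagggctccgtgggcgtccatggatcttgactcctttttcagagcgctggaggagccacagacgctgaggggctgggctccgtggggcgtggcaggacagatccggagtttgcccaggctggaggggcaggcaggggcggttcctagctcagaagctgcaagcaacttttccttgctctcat
Itgam: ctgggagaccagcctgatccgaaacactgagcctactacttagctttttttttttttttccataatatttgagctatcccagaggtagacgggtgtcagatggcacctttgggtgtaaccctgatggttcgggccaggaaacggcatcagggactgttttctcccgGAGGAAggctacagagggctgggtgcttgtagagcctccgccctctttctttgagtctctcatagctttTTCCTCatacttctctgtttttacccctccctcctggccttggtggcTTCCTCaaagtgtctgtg
Itgax: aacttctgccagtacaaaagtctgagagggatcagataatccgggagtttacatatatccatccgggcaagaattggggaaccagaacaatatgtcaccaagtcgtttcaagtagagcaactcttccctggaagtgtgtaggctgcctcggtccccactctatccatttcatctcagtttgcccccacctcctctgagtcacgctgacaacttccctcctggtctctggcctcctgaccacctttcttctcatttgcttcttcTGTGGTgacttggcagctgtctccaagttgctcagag
The Itgam window holds 3 ETS-type matches, the Itgax window 1 RUNX-type match and the Itga1 and Itga2 windows none. Over all 32851 promoters of this length, 28.3% held the ETS-type letters, 16.8% the RUNX-type and 14.5% the T-box-type. Of the promoters not printed, that of Itga4 had 1 RUNX-type and 2 T-box-type matches, and that of Itgb1 had 1 ETS-type match. The window listed for Itgb7, which does not sit at the outermost RefSeq start of the gene, had 1 ETS-type match. A match describes these letters only. The starts of Itga1 and Itga2 lie 169.9 kb apart and those of Itgam and Itgax 66.9 kb apart, and no protein-coding gene lies wholly between either couple. The annotation also has Gm49368, a protein-coding gene with no row, which starts within Itgam and runs past its end into the gap before Itgax. Gm49395, likewise protein-coding and without a row, lies within Itga1 on the same strand, as does Pelo, which has a row of its own.

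The kept cells numbered 10283 in young WT and 8329 in WT, with 7824 in miR-146a-/- and 9850 in DKO. Their UMIs came to 83882711, 84158257, 79464882 and 96747482 in the same order, with medians of 6782, 8210, 7910 and 7558 per cell. Ptprc, the gene of CD45, was detected in 98.4%, 97.9%, 98.1% and 98.2% of them. Over all kept cells, Ccl5 stood at 6174, 12544, 12496 and 65.4 CPM (UMIs of a gene scaled to a fixed total of UMIs), which bears out the label of the DKO library. Any library couple shared 109 to 150 cell barcodes.

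Cells were sorted into classes by the UMIs of marker genes, and each class is a rule rather than a cell type. The rules placed 29041 of 36286 kept cells (80.0%) in 21 classes of at least 50 cells, leaving 7203 unassigned and 42 in 3 smaller classes. Unassigned cells made up 18.0%, 26.0%, 17.3% and 18.6% of kept cells, at median depths of 3019, 11788, 11290.5 and 9927 UMIs. The share was thus largest for WT. These cells were deeper than all kept cells in each treated library and shallower in young WT. How far this bears on differences between libraries was not tested. Levels are the summed UMIs of a class in a library as CPM, for the 78 combinations of class and library with at least 20 cells. All 95% intervals are exact (Poisson for CPM, Clopper-Pearson for shares) and cover counting error only. With 1 library per group there was no replicate check and no test, so a difference below is a difference between libraries. Most classes were highest in their own marker list. As exceptions, the ILC1 list was also high in Zbtb16+ T cells, and in the treated libraries the lists for classical and patrolling monocytes were highest in pDCs or neutrophils, and the naive list was highest in mature DCs or pDCs.

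Each member had its own order of classes. In every library, Itga2 was highest in NK cells, Itgal in patrolling monocytes, Itgam in neutrophils, Itgax in cDC2 and Itgb7 in Foxp3+ T cells. For Itgam this rests on 34 UMIs from 21 neutrophils in young WT and 35 UMIs from 24 in WT. In WT, Itgam had 185 CPM in neutrophils and 166 in patrolling monocytes. Itga1, Itga4, Itgae, Itgb1 and Itgb2 changed place between libraries. Itga1 was highest in ILC1 except in WT, where PD-1- CD8 T cells led with 181 CPM. Itga4 was highest in patrolling monocytes except in WT, where PD-1+ CD8 T cells and NK cells both had 648 CPM. Itgae was highest in cDC1 in young WT and DKO and in Foxp3+ T cells in WT and miR-146a-/-. Itgb1 was highest in CD4 T cells in young WT and WT, in patrolling monocytes in miR-146a-/- and in mature DCs in DKO. Itgb2 was highest in NK cells in young WT, in PD-1+ CD8 T cells in WT, in patrolling monocytes in miR-146a-/- and in Negr1+ myeloid cells in DKO. With all cells of the libraries pooled, the classes were ordered by level. Ranges over the libraries overlapped for most neighbours in these orders: of 20 neighbouring couples of classes, 20 overlapped for Itga4, 19 for Itga1, Itgae, Itgax and Itgb1, 18 for Itga2, Itgam and Itgb2, 16 for Itgb7 and 13 for Itgal. By the pooled levels, Itga4, Itgb1 and Itgb2 reached 50 CPM in all 21 classes. Itga4 was lowest in naive-like CD8 T cells in the treated libraries, where WT had 131 CPM, miR-146a-/- 186 CPM and DKO 144 CPM, and in young WT it had 125 CPM in ILC1 and 128 in Zbtb16+ T cells. Itgb1 was lowest in B cells, at 63.2 CPM in young WT, 80.3 in WT and 93.4 in DKO, except in miR-146a-/-, where pDCs had 139 CPM. In WT and DKO, the libraries with at least 20 mature DCs, that class was the lowest for Itgal (11.3 and 39.3 CPM), Itgb2 (36.7 and 95.4) and Itgb7 (21.2 and 37.4). By contrast, Itga2 had no UMI in cDC2 and Itgae none in neutrophils in any library.

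**Figure D1:**
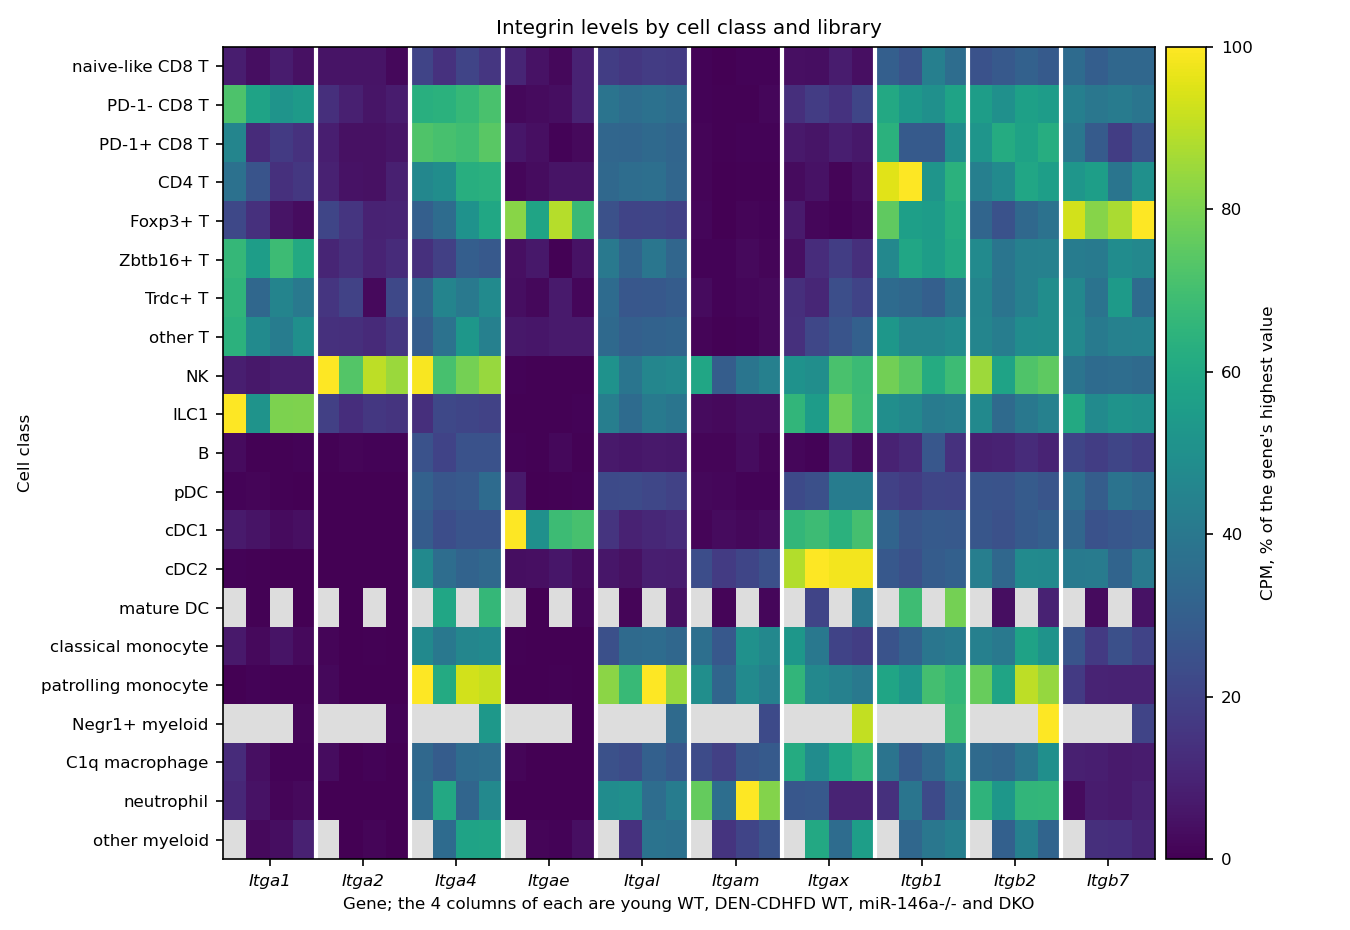
Heat map of the level (CPM, as % of the highest value of the gene) of each integrin gene in each marker-gated class, with 4 columns a gene for young WT, WT, miR-146a-/- and DKO, and grey where a library had under 20 cells. Itga2, Itgae and Itgam are high in a few classes, while Itga4, Itgal, Itgb1 and Itgb2 appear in nearly all.

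Itga1 and Itga2, the collagen-binding α chains, split the innate lymphoid classes between them. In ILC1, Itga1 stood at 313 CPM (294 to 333) in young WT and 161 (150.1 to 172) in WT, with 251 (233 to 270.1) in miR-146a-/- and 253 (239 to 268) in DKO. In NK cells the same gene lay between 20.3 and 26.5 CPM. The separation thus held in every library, and the WT library had the lowest Itga1 level of ILC1, with an interval apart from the other 3. Itga2 mirrored it, at 171 CPM (161 to 181), 125 (116 to 135), 154 (142 to 166) and 145 (135 to 155) in NK cells of young WT, WT, miR-146a-/- and DKO. ILC1 held 22.1 to 32.3 CPM of Itga2, and no class but NK cells reached 50 CPM in any library. Neither gene was among the markers that set these classes.

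Counted by cells, after random thinning of every cell to 2000 UMIs, 44.3% of ILC1 in young WT had an Itga1 UMI, 27.6% in WT, with 36.0% in miR-146a-/- and 35.5% in DKO. B cells, taken as background, had it in 1.10%, 0.606%, 0.225% and 0.305% of cells. Without thinning, the ILC1 shares were 76.0%, 57.2%, 73.4% and 70.1%, at median depths of 6539, 8047, 7622 and 7348.5 UMIs, so the WT share was lowest at the greatest depth. Thinned NK cells had an Itga2 UMI in 28.7%, 21.3%, 26.8% and 22.2% of cells, against at most 0.758% of B cells. Unthinned, the Itga2 shares of NK cells were 62.4%, 55.8%, 67.1% and 66.7%, at medians of 6530, 8280.5, 9645.5 and 8420 UMIs. Thinning left out 667, 540, 358 and 406 cells in all. A UMI of each α chain was found in 0.888% to 1.18% of thinned NK cells and 0.801% to 2.52% of ILC1. Thinned ILC1 had an Itga2 UMI in 4.62% of cells in young WT, 4.17% in WT and 5.19% in miR-146a-/-. At this depth cells with both are bound to be few, and whether the chains exclude each other was not tested.

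**Figure D2:**
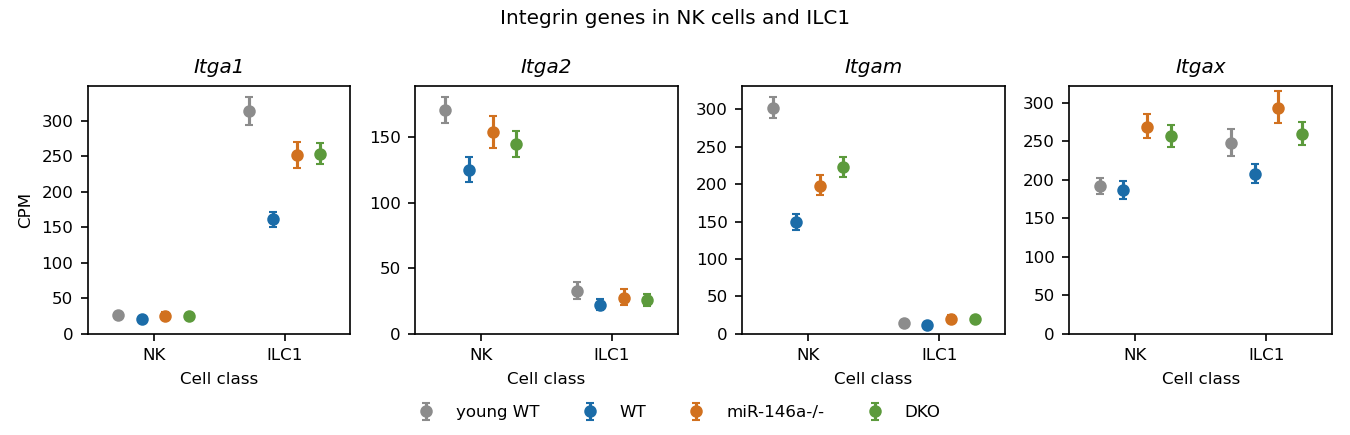
Levels (CPM) of Itga1, Itga2, Itgam and Itgax in NK cells and ILC1 in the 4 libraries, with 95% Poisson intervals. Itga1 is high in ILC1, Itga2 and Itgam in NK cells, and Itgax in both, in every library.

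Itga1 also marked part of the T cells. In PD-1- CD8 T cells it stood at 226 CPM in young WT and 181 in WT, with 162 in miR-146a-/- and 171 in DKO. In PD-1+ CD8 T cells it stood at 143 CPM (129 to 157), 38.8 (35.2 to 42.6), 53.0 (48.9 to 57.4) and 44.2 (40.1 to 48.7). The treated libraries thus held far less Itga1 in their PD-1+ than in their PD-1- cells, and young WT less so. In CD4 T cells the levels were 117, 81.2, 43.1 and 50.6 CPM, and in Zbtb16+ T cells 209, 174, 215 and 189.9 CPM. Zbtb16+ T cells, the class with the gene of the NKT-cell factor PLZF, numbered 1550 in young WT and 132 to 172 in the treated libraries, and they alone held 23.7% of all Itga1 UMIs of young WT.

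Within PD-1- and PD-1+ CD8 T cells, Itga1 went with Cxcr6, a chemokine receptor of liver-resident lymphocytes and one of the genes that gate ILC1. PD-1- CD8 T cells with a Cxcr6 UMI had 274 CPM of Itga1 in young WT and 222 in WT, with 192 in miR-146a-/- and 205 in DKO, and those without had 78.0, 55.7, 60.8 and 55.5 CPM. In PD-1+ CD8 T cells the values were 172, 41.9, 58.7 and 49.0 CPM with Cxcr6 and 36.2, 9.41, 20.7 and 20.5 without. Itga4 lay the other way round, as PD-1- cells with Cxcr6 had 466, 535, 559.8 and 616 CPM and those without it 920.4, 729, 795 and 781 CPM. The gene most like Itga1 over the 78 points was Zfp683 (r = 0.95), which encodes Hobit, a transcription factor of tissue-resident lymphocytes. In ILC1, Zfp683 stood at 212, 126, 193 and 162 CPM, lowest in WT like Itga1. In PD-1+ CD8 T cells Zfp683 stood at 89.3, 10.8, 8.60 and 12.1 CPM.

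Itga4, the VCAM-1-binding α chain, was found in all 21 classes, the highest lying 5.36-fold above the lowest in the pooled libraries, beside 5.58-fold for Itgb1. PD-1+ CD8 T cells had 663 CPM (634 to 694) in young WT and 648 (633 to 663) in WT, with 635 (621 to 649.6) in miR-146a-/- and 682 (665 to 699) in DKO. These levels lie close together, although the number of such cells went from 342 in young WT to 1326, 1528 and 1294. Thinned cells of the class had an Itga4 UMI in 70.8%, 69.5%, 68.0% and 68.6% of cells, and those that also had a UMI of Tox, a factor of exhausted T cells, in 73.3%, 71.3%, 68.8% and 69.8%. Without a Tox UMI, Itga4 was found in 66.9%, 65.0%, 65.2% and 65.3% of PD-1+ cells. No background share stands beside these shares, since no class lacked Itga4. NK cells had 905, 648, 723 and 774 CPM of Itga4 and patrolling monocytes 915, 559, 852 and 837 CPM. The WT library was lowest in both of these classes. Naive-like CD8 T cells, at 131 to 187 CPM, stood far below the other CD8 T cells. Foxp3+ T cells went from 277 CPM in young WT and 325 in WT to 467 in miR-146a-/- and 544 in DKO, and CD4 T cells from 424 and 449 to 572 and 582.

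Itgb1, the β chain shared by Itga1, Itga2 and Itga4, differed between libraries in PD-1+ CD8 T cells. PD-1+ CD8 T cells had 423 CPM (399 to 447) of Itgb1 in young WT and 189 (181 to 197) in WT, with 188 (181 to 196) in miR-146a-/- and 322 (311 to 334) in DKO. In PD-1- cells the levels were 399.7 (379.7 to 420.4), 354 (333 to 375), 333 (315 to 353) and 386 CPM (366 to 408), so young WT had overlapping intervals for both classes. Itga4 in PD-1- cells stood at 576 CPM (552 to 601), 584 (557 to 612), 612 (587 to 639) and 653 (626 to 681), below PD-1+ cells in young WT and WT with intervals apart. For Itgb1, WT and miR-146a-/- therefore coincided in PD-1+ cells at a low level, and DKO lay between them and young WT. Since 57.6% of the PD-1+ class in young WT rested on a single Pdcd1 UMI, against 16.3% in WT and 22.4% in miR-146a-/-, and 27.5% in DKO, the CD8 T cells were also divided by their number of Pdcd1 UMIs.

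Going from 0 to 1, to 2 or 3 and to 4 or more Pdcd1 UMIs, Itgb1 stood at 354, 307, 230.0 and 146 CPM in WT. In miR-146a-/- it stood at 333, 252, 195 and 159 CPM along the same steps, and in DKO at 386, 393, 327 and 278 CPM. Young WT had 399.7, 430.0, 425 and 382 CPM, with 44 cells in the last step. At matched Pdcd1 UMIs, Itgb1 was thus lower in WT and miR-146a-/- than in DKO in every step with a Pdcd1 UMI. Itga4 had no such downward slope, with 584, 697, 667 and 629.8 CPM in WT and 612, 641, 652 and 623 in miR-146a-/-. DKO had 653, 699.8, 689.7 and 666 CPM of Itga4. In young WT it stood at 576 CPM (552 to 601), 681, 605 and 711 (626 to 804), so the last step lay above the first. Itga1 had 181, 71.6, 36.6 and 32.0 CPM in WT, 162, 77.0, 49.0 and 45.4 in miR-146a-/- and 171, 58.3, 50.4 and 31.4 in DKO, but 226, 139.6, 149 and 146 in young WT. Tox went the other way, from 358 to 837 CPM in WT and from 439 to 1083 in miR-146a-/-. Median UMIs per cell over these steps lay between 5573 and 7463. Deeper cells reach a step more easily, and the part of depth was not tested.

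**Figure D3:**
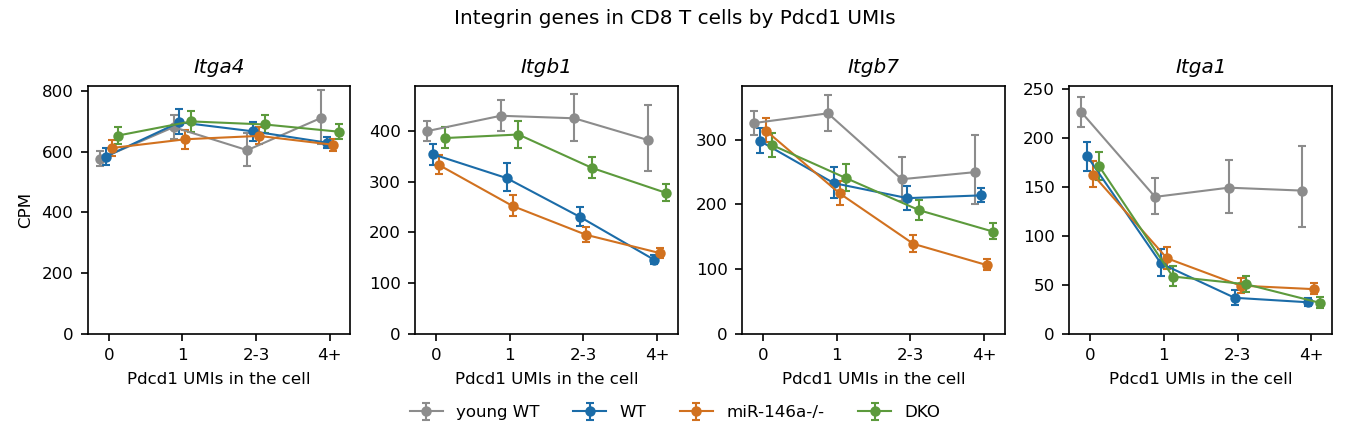
Levels (CPM) of integrin genes in CD8 T cells that were not naive-like, by Pdcd1 UMIs per cell, with 1 line per library and 95% Poisson intervals. Itgb1, Itgb7 and Itga1 are lower at the last step than at the first in the treated libraries, where Itga4 is about level.

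Elsewhere, Itgb1 in CD4 T cells stood at 635 CPM in young WT and 664 in WT, with 347 in miR-146a-/- and 424 in DKO, so the libraries that lack miR-146a were the lower ones. B cells had 63.2 CPM (57.8 to 69.0), 80.3 (72.9 to 88.3), 181 (168 to 196) and 93.4 (85.1 to 102) of Itgb1, and miR-146a-/- alone stood out. CD4 T cells and NK cells, among others, held more Itgb1 than B cells in every library, while pDCs held less in miR-146a-/-. The part of background RNA in these values was not tested. Itgax, not a gene of resting B cells, was also highest in B cells of miR-146a-/-, at 29.8 CPM (24.5 to 36.0), against 6.16 in young WT, 11.1 in DKO and 16 UMIs (1.72 to 4.87 CPM) in WT.

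Itgb7, the β chain of gut and epithelial homing, was highest in Foxp3+ T cells, at 703 CPM in young WT and 619 in WT, with 658 in miR-146a-/- and 755 in DKO. In ILC1 it stood at 459, 361, 389 and 379 CPM. In PD-1+ CD8 T cells Itgb7 stood at 300.2 CPM (280.5 to 321), 216 (207 to 225), 138 (132 to 145) and 189 (180.3 to 198), whereas PD-1- cells lay at 326, 298, 314 and 292 CPM. The order of libraries thus differed from that of Itgb1, with miR-146a-/- alone at the bottom. Along the steps of Pdcd1 UMIs, Itgb7 had 314, 217, 139 and 106 CPM in miR-146a-/-, 298, 233, 209.7 and 214 in WT, and 292, 241, 191 and 158 in DKO.

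Itgae, its E-cadherin-binding partner, had its highest levels in cDC1 and Foxp3+ T cells in every library. In cDC1 it stood at 233 CPM (218 to 248) in young WT and 117 (104 to 131) in WT, with 159.8 (145 to 176) in miR-146a-/- and 165 (151 to 179) in DKO. Foxp3+ T cells had 192, 136, 207 and 158 CPM. Every CD8 class stayed at or below 24.0 CPM. Of all Itgae UMIs, cDC1 held 47.8%, 30.2%, 31.9% and 37.9%, and in WT, with 31.9% of them in unassigned cells, PD-1+ CD8 T cells held 10.8%. Thinned cDC1 had an Itgae UMI in 34.0%, 13.7%, 27.9% and 24.6% of cells, against at most 1.13% of B cells. Neutrophils had no Itgae UMI, which at a floor of 3 counts allows up to 34.3, 15.8, 2.49 and 1.95 CPM.

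Itgam, which encodes CD11b, was a gene of myeloid and NK cells, and the libraries differed in both. NK cells had 302 CPM (289 to 316) in young WT and 149.6 (139 to 160.5) in WT, with 198 (185 to 212) in miR-146a-/- and 223 (210.1 to 236) in DKO. Neutrophils had 389, 185, 510.4 and 415 CPM, from 21, 24, 74 and 90 cells. Classical monocytes had 186 CPM (159.6 to 216), 141 (128 to 155), 259 (246 to 272) and 239 (229 to 249) and patrolling monocytes 253, 166, 244 and 222 CPM. In each of these classes the WT library was the lowest.

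Because CD11b rises as NK cells mature, the NK class was divided by Cd27, a gene of immature NK cells, and Klrg1, a gene of mature ones. NK cells with Klrg1 and no Cd27 numbered 503 of 948 in young WT and 177 of 566 in WT, with 140 of 428 in miR-146a-/- and 208 of 573 in DKO. In them Itgam stood at 370.0 CPM (350.0 to 391), 265 (239 to 292), 379 (346 to 414) and 386 (358 to 416). Cells with Cd27 and no Klrg1 had 119.8 CPM (99.1 to 144), 56.0 (45.6 to 68.1), 81.6 (68.5 to 96.4) and 104 (89.1 to 121). The mature group was smaller in the treated libraries, and WT had less Itgam than young WT in each group. The part of maturation in the Itgam values was not tested. Itgam UMIs were found in 43.3%, 24.0%, 29.6% and 35.9% of thinned NK cells, against at most 1.00% of naive-like CD8 T cells, and in 73.4%, 53.7%, 59.6% and 64.2% without thinning. Other genes of NK maturation lay lowest in WT as well, with the egress receptor S1pr5, which is also a gating gene of the class, at 339, 149, 219 and 202 CPM and the transcription factor Zeb2 at 492, 273, 338 and 325 CPM. Cd27 itself had 55.4, 94.5, 91.2 and 80.1 CPM.

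The cells that supplied the Itgam transcripts differed too. NK cells held 56.3% of the Itgam UMIs of young WT, 22.9% in WT, with 11.7% in miR-146a-/- and 12.5% in DKO. Classical monocytes held 4.85%, 12.5%, 21.6% and 21.8%, and patrolling monocytes 4.06%, 5.61%, 18.9% and 21.3%. Unassigned cells held 17.9%, 41.5%, 28.1% and 21.0%. Over all kept cells Itgam stood at 42.6, 40.5, 90.8 and 97.7 CPM. With the mix of classes held the same in every library, it stood at 71.3, 44.2, 69.5 and 68.8 CPM over 18 classes. That value covers the classes only and leaves out the unassigned cells, and the part of the mix in the result was not tested.

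**Figure D4:**
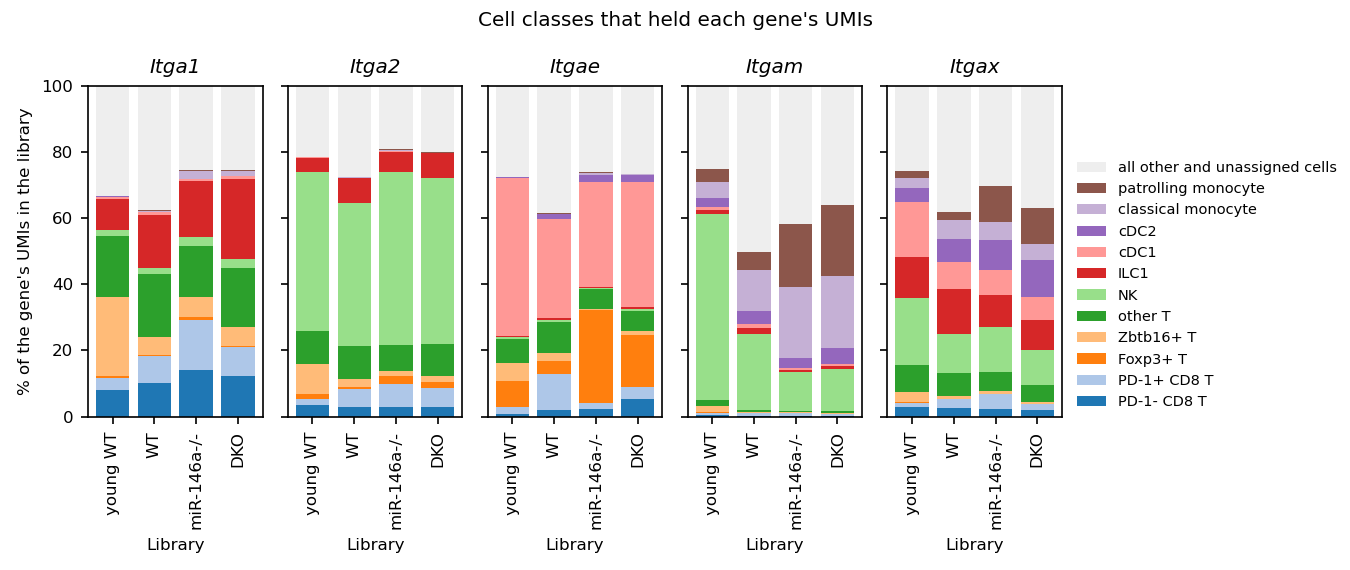
Share (%) of the UMIs of Itga1, Itga2, Itgae, Itgam and Itgax that came from each class, by library, with other and unassigned cells in light grey. Itgam passes from NK cells in young WT to classical and patrolling monocytes in miR-146a-/- and DKO, while about the same share of Itga2 comes from NK cells in each library.

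Itgax, which encodes CD11c, was highest in cDC2. It stood there at 333 CPM in young WT and 377 in WT, with 370.0 in miR-146a-/- and 371 in DKO. In cDC1 it had 240.2 to 266 CPM. In classical monocytes it stood at 199 CPM (172 to 230.1), 151 (137 to 165), 76.4 (69.6 to 83.7) and 68.9 (63.5 to 74.7), so that miR-146a-/- and DKO, the libraries high in Itgam, were low in Itgax. pDCs went the other way, with 85.0, 91.9, 158 and 159 CPM. Innate lymphoid cells carried Itgax too, NK cells at 192, 187, 269 and 257 CPM and ILC1 at 248, 208, 294 and 259 CPM. Thinned classical monocytes had an Itgax UMI in 27.7% of cells in young WT, 17.9% in WT and 12.7% in miR-146a-/-, and in 52 of 471 cells in DKO, against at most 3.86% of naive-like CD8 T cells, and UMIs of both Itgam and Itgax in 6.15%, 5.68%, 4.66% and 2.55%.

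Itgal, the α chain of LFA-1, was highest in patrolling monocytes, at 716 CPM in young WT and 584 in WT, with 867 in miR-146a-/- and 733 in DKO. NK cells had 443, 337, 397 and 409 CPM and B cells 60.6, 52.5, 58.3 and 56.9 CPM. PD-1+ CD8 T cells kept to 282 to 297 CPM in all libraries. Itgb2, the β chain that Itgal, Itgam and Itgax share, had 758 CPM (688 to 833), 577 (534 to 622), 889.9 (865 to 915) and 831 (812 to 850.0) in patrolling monocytes. In NK cells Itgb2 stood at 843, 574, 715 and 742 CPM. Patrolling monocytes numbered 70, 102, 626 and 1103 cells. The β chain was thus lowest in WT in both classes, as were Itgal and Itgam.

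Smaller classes filled in the picture of the β2 chains. Negr1+ myeloid cells, 222 in DKO and at most 16 in any other library, had 987 CPM (934 to 1041) of Itgb2, 343 (313 to 376) of Itgax and 301 (272 to 331) of Itgal in DKO. C1q macrophages had 340.0, 324, 386 and 493 CPM of Itgb2 and 232, 183, 222 and 248 CPM of Itgax in the 4 libraries. Mature DCs, with 39 cells in WT and 31 in DKO, had 36.7 CPM (24.0 to 53.8) and 95.4 (71.0 to 125) of Itgb2, beside 92.7 (84.7 to 101) and 97.3 (88.9 to 106) in B cells, and 542 and 611 CPM of Itga4. Trdc+ T cells, the class with a γδ T-cell receptor gene, had 205 CPM of Itga1 in young WT and 104 in WT, from 138 and 67 cells.

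Partner chains followed each other to different degrees across classes. Over the 78 points, which share libraries and gates, the correlation of log levels was 0.82 for Itgal and Itgb2, 0.43 for Itgam and Itgb2, 0.24 for Itgax and Itgb2, and 0.55 for Itgam and Itgax. For the β1 partners it was 0.37 with Itga1, 0.51 with Itga2 and 0.48 with Itga4, and for Itgb7 it was 0.48 with Itgae and -0.18 with Itga4. These values describe the classes and carry no test. By the same measure, among 6881 genes, Itgal was most like Tbc1d2b (0.91), Itgam most like Emilin2 (0.89), Itgb2 most like Myo1f (0.87), the gene of a myosin of immune cells, and Itgb7 most like Top2b and Hmgb1 (both 0.88). Itgax was most like Afdn (0.86), followed by Tyrobp (0.83), an adaptor of activating receptors. Itgb1 was most like Myl6 (0.76), Itgae most like Rtl8b (0.73) and Itga4 most like Nab1 (0.64). The genes nearest to Itga2 were Klrb1c and Ncr1, both from the marker list that gates NK cells and ILC1, and then Adamts14 (each 0.90). Next after the genes named came Cd226 and Ccdc136 for Itga1 (both 0.94), Tmem50a and Hip1 for Itgal (both 0.85), Lrmda and G6pdx for Itgam (both 0.85) and Mrpl33 (0.85) and Bin2 (0.81) for Itgb2. For the others they were Hnrnpu for Itgb7 (0.87), Pik3cb for Itgax (0.81), Aplp2 (0.72) and Lrrc8c (0.71) for Itgb1, Cyb5a (0.72) and Rtl8c (0.69) for Itgae, and Elf4 and Flii for Itga4 (both 0.58).

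The libraries were then compared class by class, as log2 ratios of CPM with a prior of 0.5 counts, for genes reaching 50 CPM and 20 UMIs in the class in either library. A ratio past 1.5-fold is counted as higher or lower. The comparisons share libraries, so each is given by its own values. A member could pass the minimum through its higher library alone, which favours couples that differ. The counts therefore describe the members and support nothing further.

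WT over young WT asked what differed in treated, older livers. Here 118 of 180 couples of member and class passed the minimum, and 17 (14.4%) were past the fold, against 9.94% of all genes tested in these classes. Of the 118 couples, 4 were higher, against 5.22% of all genes, and 13 were lower, against 4.72%. The median log2 ratio was -0.21 for the members and 0.01 for all genes. Itga1 was below 0 in all 8 classes where it passed, and 4 were past the fold, with PD-1+ CD8 T cells at -1.88 (-2.08 to -1.68), Trdc+ T cells at -0.98, ILC1 at -0.96 (-1.10 to -0.83) and Foxp3+ T cells at -0.60, where the interval reached 0.24. Itgam was below 0 in all 6 classes that passed, with NK cells at -1.02 (-1.14 to -0.90), neutrophils at -1.08 and patrolling monocytes at -0.61. Further lower values were those of Itgb1 in PD-1+ CD8 T cells (-1.16), Itgae in cDC1 (-0.99), Itgb7 and Itga4 in patrolling monocytes (-0.76 and -0.71), Itgal in cDC1 (-0.63) and Itgb7 in classical monocytes (-0.60). The higher ones were Itga4 in ILC1 (0.66, from 125 to 198 CPM), Itgax in other T cells (0.62) and, in neutrophils, Itgb1 (1.43) and Itga4 (0.77). TMM scaling brought Itgam in patrolling monocytes (-0.56) and Itgb7 in classical monocytes (-0.58) within 1.5-fold. Of the 17 ratios past the fold, 12 stayed so with a mean taken over cells and 14 without limits on markers of another lineage. Without cells that had an Mki67 or Top2a UMI, 15 stayed.

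In neutrophils the libraries differed in kind. Ngp, a granule gene of immature neutrophils, stood at 4152 CPM in young WT and 0 in WT, with 24528 in miR-146a-/- and 15565 in DKO, and 61.0% of genes in the class were past the fold between WT and young WT and 48.3% between miR-146a-/- and WT. The part of this in the integrin values was not tested. Without the neutrophil class, an alternative added after seeing the data, 14 of 112 members' ratios were past the fold between WT and young WT (8.52% of all genes), 18 of 119 between miR-146a-/- and WT (10.0% of all genes) and 4 of 119 between DKO and miR-146a-/- (4.14% of all genes).

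For miR-146a-/- over WT, which asks what differs when the microRNA is absent, 126 of 190 couples passed and 22 (17.5%) were past the fold, against 11.6% of all genes. Of the 126 couples, 14 were higher, against 4.75% of all genes, and 8 lower, against 6.83%. The median was 0.21 for the members and 0.00 for all genes. Itgam was above 0 in all 7 classes that passed, with classical monocytes at 0.87 (0.72 to 1.03) and neutrophils at 1.45. Itgb2 was above 0 in 18 of 19 classes, with a median of 0.25, but past the fold only in patrolling monocytes, at 0.62 (0.51 to 0.74). Itga4 in patrolling monocytes was at 0.61 and Itga1 in ILC1 at 0.64 (0.50 to 0.79). Itgb1 was higher in B cells at 1.18 (1.00 to 1.36) and in naive-like CD8 T cells at 0.76. Also higher were Itgal in other myeloid cells (1.43) and cDC2 (0.87), Itgax in Trdc+ T cells (1.16, from 25 and 21 UMIs) and pDCs (0.78), and Itga4 in other myeloid cells (0.72) and Zbtb16+ T cells (0.65). On the lower side, CD4 T cells had Itgb1 at -0.94 and Itga1 at -0.91, classical monocytes had Itgax at -0.98 and PD-1+ CD8 T cells had Itgb7 at -0.64 (-0.73 to -0.55). Neutrophils had Itgax at -1.52, Itga4 at -0.90 and Itgb1 at -0.80, and other myeloid cells had Itgax at -0.75. The Itgb1 ratio in neutrophils changed sign, to just above no change, when a mean was taken over cells. Itgae in Foxp3+ T cells reached 0.59, with an interval from 0.14 to 1.11 that rests on 38 WT cells. With TMM scaling, this ratio (0.57) and those of Itga4 and Itgb1 in neutrophils (-0.47 and -0.36) lay within 1.5-fold. Of the 22 ratios past the fold, 17 stayed so with a mean taken over cells and 17 with 1 more marker UMI in each gate. Without cells that had an Mki67 or Top2a UMI 17 stayed, and without limits on markers of another lineage 18.

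DKO over miR-146a-/- asks what differs when Ccl5 is absent too. Here 125 of 190 couples passed and 5 were past the fold, close to the 4.64% of all genes. Of the 125 couples, 3 were higher, against 2.69% of all genes, and 2 lower, against 1.95%. Both medians were 0.01. Itgb1 was higher in PD-1+ CD8 T cells at 0.78 (0.70 to 0.86) and in neutrophils at 0.62, and lower in B cells at -0.96 (-1.13 to -0.79). The others were Itgb7 in Trdc+ T cells at -0.64, from 411 to 264 CPM, and Itgax in other myeloid cells at 0.65, from 134 to 212 CPM. With TMM scaling, Itgb1 in neutrophils (0.49) and Itgb7 in Trdc+ T cells (-0.57) lay within 1.5-fold. With 1 more marker UMI in each gate, 3 of the 5 stayed past the fold, and Itgax in other myeloid cells (0.34) was among those lost. A mean taken over cells kept 4, as did leaving out the limits on markers of another lineage. Most integrin ratios of DKO over miR-146a-/- thus lay within 1.5-fold, as did those of all genes, so this is not particular to the integrins. Ratios within the fold were not all without a difference. Among the members that passed in all 19 classes, the interval excluded no change in 3 classes for Itgal, the fewest, and in 9 for Itgb1, the most.

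**Figure D5:**
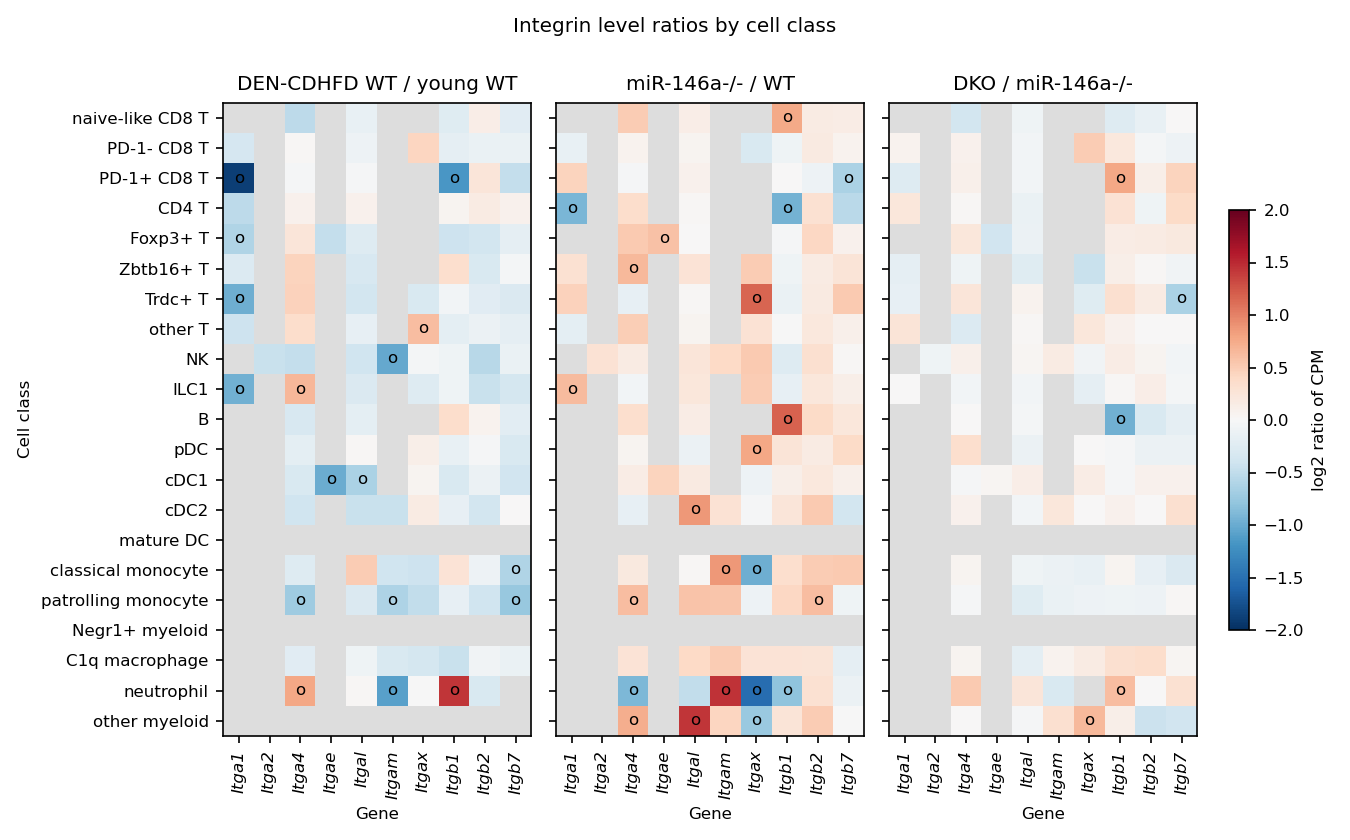
Log2 ratio of each integrin gene in each class for the 3 comparisons, with circles at ratios past 1.5-fold and grey where the gene was under the minimum or the class under 20 cells in a library. The 3 comparisons have 17, 22 and 5 circles, where 9.94%, 11.6% and 4.64% of all genes were past the fold.

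Genes that act with the members were described from fixed lists. Of 16 integrin activation and tail-binding genes, all reached 50 CPM in some class. Between WT and young WT, 5 of their ratios were higher and 12 lower of 235 (7.23%, against 9.94% of all genes). Between miR-146a-/- and WT they were 13 and 6 of 249 (7.63%, against 11.6%), and between DKO and miR-146a-/- 2 and 2 of 252 (1.59%, against 4.64%). The list thus lay below the share of all genes in each comparison. Flna, which links integrin tails to actin, went from 447 CPM in WT to 854 in miR-146a-/- in patrolling monocytes. Rasgrp2, the exchange factor that switches on Rap1, went from 55.5 to 144 CPM in classical monocytes between the same libraries.

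Residency and egress companions made up a list of 9 genes. Of their ratios, 11 were higher and 27 lower of 93 between WT and young WT (40.9%, against 9.94% of all genes), 10 and 48 of 94 between miR-146a-/- and WT (61.7%, against 11.6%), and 13 and 5 of 87 between DKO and miR-146a-/- (20.7%, against 4.64%). These shares describe the list and were not tested. Klf2, which drives egress genes, stood in NK cells at 2390.3 CPM in young WT and 1463 in WT, with 867 in miR-146a-/- and 1044 in DKO. In ILC1 it stood at 338, 265, 66.8 and 80.8 CPM. Rgs1, a brake on chemokine receptors, had 2591, 2774, 1344 and 2041 CPM in ILC1. For the 6 NK maturation genes, 7 ratios were higher and 9 lower of 41 in the first comparison (39.0%), 7 and 5 of 43 in the next (27.9%) and 2 and 4 of 37 in the last (16.2%), against the same shares of all genes. Of 11 ligand genes, 7 reached 50 CPM in some class, with 7 higher and 2 lower of 34 ratios (26.5%, against 9.94% of all genes), 7 and 10 of 39 (43.6%, against 11.6%), and 5 and 0 of 38 (13.2%, against 4.64%). Fn1, the fibronectin bound by Itga4 with Itgb1, went from 224 CPM in WT to 718 in miR-146a-/- in classical monocytes. Icam1, a ligand of the β2 integrins, went from 304 CPM in young WT to 144 in WT in NK cells.

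Cells of other kinds were few. The 4 hepatocyte genes summed to 15.3 CPM in young WT and 15.4 in WT, with 9.05 in miR-146a-/- and 10.5 in DKO, with Alb the most abundant, and the 4 stellate-cell genes to 0.465, 0.808, 0.566 and 0.610 CPM, led by Dcn. The 5 endothelial genes summed to 63.9, 50.5, 75.5 and 94.9 CPM, mostly Pecam1 (54.7, 43.3, 71.5 and 88.3), which leukocytes also make. The 3 platelet genes summed to 0.727, 3.81, 0.680 and 11.7 CPM, led by Pf4, with Gp9 at 0 in WT. Their part in the result was not tested. The Kupffer-cell gene Clec4f stood at 375, 21.4, 0 and 1.29 CPM in C1q macrophages, so this class was not alike across libraries.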

How the data were processed

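The authors aligned the reads to mm10 (GRCm38) and deposited raw UMI count matrices. Their headers give Cell Ranger 7.0.1, the paper another version, and neither says whether reads in introns count. Cells were kept if they had 600 to 6000 features and no more than 5% mitochondrial UMIs. Doublets were limited only by the upper feature limit and by limits on markers of other lineages in each gate. UMIs of a class were summed per library and scaled to CPM. Log2 ratios used a prior of 0.5 counts, a fold of 1.5 and a minimum of 50 CPM and 20 UMIs in a class of either library. A class needed 50 cells in all and 20 in a library. Cells were thinned to 2000 UMIs for shares of cells.

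All 10 members were named, with the 3 genes most like each by Pearson correlation of log2(CPM + 10) among genes of at least 50 CPM in a point (mitochondrial, ribosomal, receptor-segment genes and members left out), and genes of the lists above and of a list of other integrin subunits. Tox lay outside this rule and, like the examples from the lists, was chosen after its values were seen. The members and lists were chosen with earlier results of these data known.

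Coordinates came from GENCODE M21 and promoters from RefSeq. Python 3.11.15, numpy 2.4.6, scipy 1.17.1, pandas 2.3.3, matplotlib 3.10.9 and, for TMM factors, edgeR 4.0.16 in R 4.3.3 were used. The scripts were tested on simulated data. Alternatives were a 10% mitochondrial limit, 200 features, no lineage limits, 1 more marker UMI, no cells with Mki67 or Top2a, TMM, a mean taken over cells, a prior of 5 counts, a minimum of 10 CPM and 5 UMIs, a fold of 2, and thinning to 1000 UMIs or none.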

Additional observations from a re-analysis of the deposited data

How the results depend on the processing

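Of the 44 ratios past the fold, all 44 kept their sign and 36 to 44 stayed past 1.5-fold when cell filters, gates, prior or TMM scaling changed. The mean over cells kept 43 signs and 33 past the fold. There, Itgb1 in neutrophils for miR-146a-/- over WT turned from -0.80 to 0.05; the cause was not tested. TMM scaling gave 3 of 125 ratios past the fold for DKO over miR-146a-/- (4.61% of all genes). With a minimum of 10 CPM and 5 UMIs, which tests more genes, the counts were 31 of 146 for WT over young WT (17.0% of all genes), 41 of 153 for miR-146a-/- over WT (18.0% of all genes) and 22 of 155 for DKO over miR-146a-/- (10.5% of all genes). A fold of 2 gave 5, 5 and 0 (3.40%, 4.07% and 1.27% of all genes). With at least 2 Pdcd1 UMIs in the PD-1+ CD8 T class, chosen after seeing the data, the counts were 17, 22 and 5 (10.1%, 11.6% and 4.68% of all genes). Over all alternatives, 158 of 2970 log2 ratios moved beyond their interval and 1 reversed. Without the lineage limits, 233 of 780 levels and 435 of 780 shares of UMIs moved, so these shares hold for the stated limits only; changing the mitochondrial or feature limits moved none. Of 1560 shares of cells, 1150 moved with thinning, so they hold for the stated depth only. TMM moved the median of all genes by more than 0.1 in 5 of 56 class comparisons, the most in neutrophils (-0.29 to 0.16). Each group is 1 library with an unknown number of mice, classes are marker rules, and rare classes such as neutrophils and Foxp3+ T cells in WT rest on few cells.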

Other observations

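Among the 16 integrin subunit genes outside the 10 members, 8 reached 50 CPM in some class. Past the fold were 9 higher and 1 lower of 25 ratios for WT over young WT (5.22% and 4.72% of all genes), 4 and 7 of 31 for miR-146a-/- over WT (4.75% and 6.83%), and 7 and 0 of 36 for DKO over miR-146a-/- (2.69% and 1.95%). Itgav, the α chain of vitronectin receptors, stood in ILC1 at 146 CPM in young WT and 209 in WT, with 158 in miR-146a-/- and 178 in DKO. Itgb3, its partner on platelets and monocytes, stood in ILC1 at 51.4, 94.2, 60.4 and 70.9 CPM, and so had its highest value in WT, where Itga1 had its lowest. In patrolling monocytes Itgb3 stood at 21.0, 10.4, 79.3 and 53.7 CPM. Itgad, the gene of a further β2-pairing α chain (CD11d), was found mainly in Negr1+ myeloid cells, at 622 CPM in the 222 such cells of DKO.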
